A study of Homo sapiens with 72 samples.

Results

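FKBP10 and 9 other genes that modify, fold or crosslink collagen were followed in IMR-90 cells, an early-passage human lung fibroblast strain, after exposure to alpha particles. The 10 genes were FKBP10, PLOD1, PLOD2, PLOD3, P4HA1, P4HA2, SERPINH1, LOX, LOXL1 and LOXL2. They were chosen by name, with ratios to control from these same arrays in view, so those ratios are given as a description and no p-value is printed for them. The array carried 11 probes for the 10 genes, among 41000 probes in all, and each of the 11 passed the filter on dim probes.

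Cells grew as a continuous layer in dishes with a thin Mylar base under one part and a thick Mylar base under the other. Alpha particles crossed the thin base and were stopped by the thick base. A dose of 50 cGy of 4He ions was given to the exposed dishes. Irradiated cells came from the thin part and bystander cells from the thick part of the exposed dishes, and control cells came from sham-irradiated dishes (0 cGy) collected at the same times. Total RNA was taken at 0.5 h, 1 h, 2 h, 4 h, 6 h and 24 h in 4 experiments, which gave 18 groups of 4 arrays and 72 arrays in total. All groups were 1 cell strain, with no allele or drug added. Each array measured 1 sample in 1 colour, and 65.7% to 76.9% of its spots were well above background. The SD of a ratio given below is that between the 4 experiments.

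The fibroblast label was checked against marker genes. COL1A1, COL1A2, COL3A1, VIM, THY1, PDGFRB, FAP, LUM and DCN were well above background on all 72 arrays. The keratin KRT5 was well above background on 1 array, the endothelial gene PECAM1 on 2, the leukocyte gene PTPRC on 5, the epithelial cadherin CDH1 on 9, the endothelial cadherin CDH5 on 12 and EPCAM on 44. SFTPC, VWF, CD14 and CD3E were above background on all 72 arrays. In bulk RNA, fewer cells of a type and less RNA per cell cannot be told apart.

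Fibroblasts make collagen as procollagen chains in the endoplasmic reticulum. There the P4HA enzymes hydroxylate proline, which stabilises the triple helix, and the PLOD enzymes hydroxylate lysine, which marks the places where crosslinks later form. SERPINH1 and FKBP10 are chaperones of the same compartment; SERPINH1 binds the folded triple helix, and FKBP10 is a peptidyl-prolyl isomerase required for PLOD2 to modify the collagen ends. Outside the cell LOX, LOXL1 and LOXL2 oxidise lysine and hydroxylysine so that fibrils become crosslinked. Loss of FKBP10 or of PLOD2 causes the same brittle bone and joint contracture syndrome in humans.

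Probes were 60 bases long. The FKBP10 values rest on a single probe, A_23_P15727, of 45% GC. Read as printed, none of its frames was free of stop codons, and its first 30 bases are shown because every FKBP10 value below rests on this sequence. P4HA2 was the only gene with a pair of probes. A_23_P18966 is shown whole, because the pair measured different stretches of the transcript, while of A_23_P30363 the bases from 25 to 54 are shown, with the polyadenylation signal AATAAA in capitals.
FKBP10, A_23_P15727: cagactgggctgtagttagcttttcatccc
P4HA2, A_23_P18966: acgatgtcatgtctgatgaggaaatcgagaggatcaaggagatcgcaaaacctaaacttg
P4HA2, A_23_P30363: gctttaccaaaaAATAAAatgtccctacca
The GC content of the 11 probes ran from 35% to 55%, against a median of 43.3% over all probes that passed the filter. LOX and LOXL2 were printed in 10 spots on each array, and the SD between spots of an array had a median of 0.14 for LOX and 0.11 for LOXL2 on the log2 scale.

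FKBP10 had lower signal than control in irradiated and in bystander cells at all 6 times. Levels are given as the log2 of intensity over the 75th percentile of the array, so that 0 is the 75th percentile. At 0.5 h the control arrays of experiments 1 to 4 had FKBP10 levels of 2.22, 3.02, 3.94 and 4.02. The irradiated arrays had 1.57, 0.45, 0.32 and 2.37, and the bystander arrays had 1.07, 1.15, -0.11 and 3.23. Each treated array lay below the control of its own experiment, although the groups overlapped. The controls spread from 2.22 to 4.02, the irradiated arrays from 0.32 to 2.37 and the bystander arrays from -0.11 to 3.23. At 1 h the control levels were 1.11, 0.47, 2.92 and 2.79, the irradiated levels 0.03, -0.58, 1.52 and -0.77, and the bystander levels 0.23, -0.73, 2.17 and -0.72. At 2 h the control levels were 0.19, -0.03, 1.11 and 2.28, the irradiated levels -0.12, -0.94, 0.61 and -1.0, and the bystander levels -0.16, -1.0, 0.29 and -0.93. Experiment 4 had the widest gap at both times.

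At 4 h the FKBP10 control levels were 3.51, 3.63, 4.47 and 4.67, the irradiated levels 1.37, 2.42, 3.85 and 0.82, and the bystander levels 1.80, 1.57, 4.84 and 1.28. The bystander array of experiment 3 was the only treated array of the 48 to lie above its control. At 6 h the control levels were 0.53, 0.19, 3.0 and 1.93, the irradiated levels -0.80, -1.37, 0.51 and -1.15, and the bystander levels -0.99, -1.21, 1.54 and -0.69. At 24 h the control levels were 1.84, 3.34, 3.30 and 3.41, the irradiated levels 0.85, 1.85, 1.69 and -0.92, and the bystander levels 1.66, 1.05, 1.45 and 0.39. Bystander cells at 24 h were the only treated group in which all 4 arrays lay below all 4 control arrays.

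**Figure D1:**
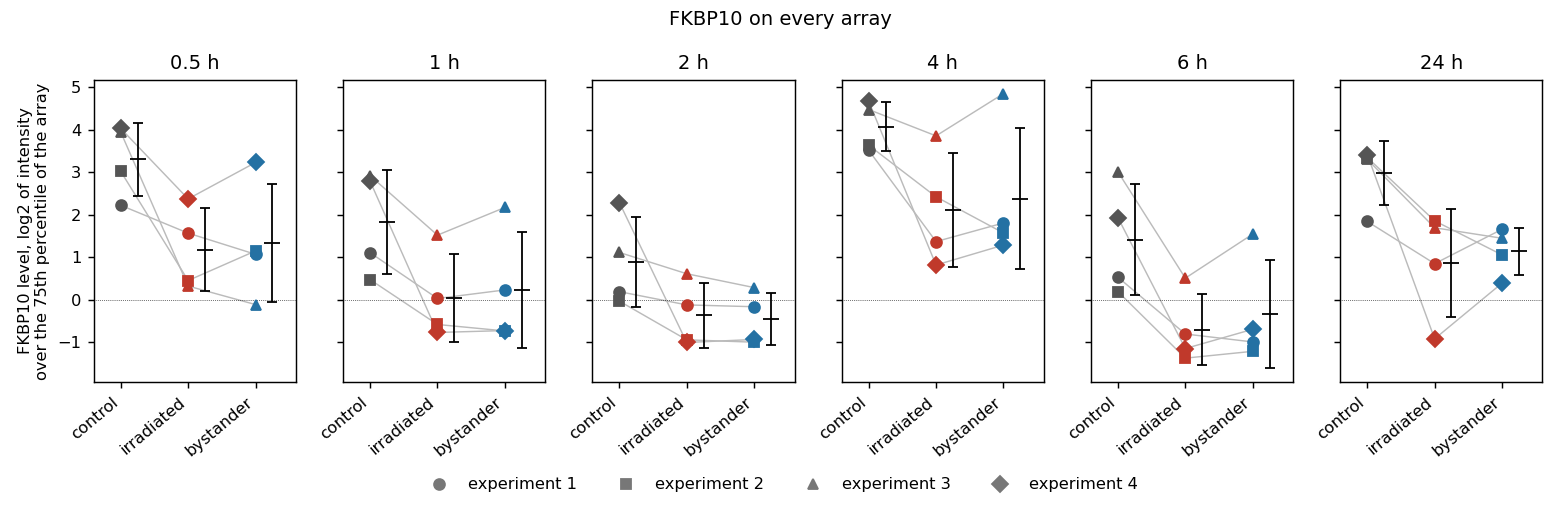
FKBP10 level on each of the 72 arrays (log2 of intensity over the 75th percentile of the array), by time and group. Grey lines join the 3 samples of an experiment, and black bars show the group mean and SD (n = 4); the control lies above both treated samples of its experiment everywhere except at 4 h in experiment 3, where the bystander sample is higher.

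The mean within-experiment log2 ratio of FKBP10 in irradiated cells was -2.12 ± 1.27 (SD, n = 4) at 0.5 h, a 4.35-fold lower signal. It was -1.77 ± 1.2 at 1 h, -1.25 ± 1.38 at 2 h, -1.96 ± 1.41 at 4 h, -2.12 ± 0.81 at 6 h and -2.10 ± 1.51 at 24 h. In bystander cells the ratio was -1.97 ± 1.46 at 0.5 h, -1.58 ± 1.30 at 1 h, -1.34 ± 1.28 at 2 h, -1.69 ± 1.55 at 4 h, -1.75 ± 0.58 at 6 h and -1.84 ± 1.2 at 24 h. Without experiment 4 the irradiated ratio was -1.18 at 1 h, -0.57 at 2 h and -1.36 at 24 h, and the bystander ratio -0.94 at 1 h and -0.71 at 2 h. Without experiment 3 the bystander ratio at 0.5 h was -1.27. All 24 irradiated samples and 23 of 24 bystander samples lay below their control. Counted from the lowest ratio among the 25245 or 25246 probes tested at a time, FKBP10 ranked between 1 and 16 in irradiated cells and between 3 and 13 in bystander cells. The gene was chosen with such ratios in view, so nothing is read from its rank. The ratios in both groups share the same control arrays.

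The experiments differed more in FKBP10 than in most genes. Over the 24 control arrays the FKBP10 level ran from -0.03 to 4.67, with an SD of 1.44, and 99.4% of the probes tested had a smaller SD. That SD also holds differences between time points. Within a time point the SD of the 4 controls was 0.99 for FKBP10 and had a median of 0.39 over all probes. A smaller SD within a time point was found for 96.7% of probes with a value on every control array. The mean control level was highest at 4 h (4.07 ± 0.58), followed by 0.5 h (3.30 ± 0.85), 24 h (2.97 ± 0.76), 1 h (1.82 ± 1.22), 6 h (1.41 ± 1.30) and 2 h (0.89 ± 1.05). Each step in this order was smaller than the larger SD of the pair of times it joins. Each time point was hybridised on slides of its own, so time and slide cannot be told apart in these levels.

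Every slide held controls beside treated samples, and FKBP10 was lower than control within each of the 18 slides. The within-slide difference in log2 level lay between -4.33 and -0.20 for irradiated cells and between -4.22 and -0.24 for bystander cells. Slides did not hold whole experiments, so within-slide differences, here and for the lists below, partly compare samples of different experiments. The value of -4.22 set the bystander sample of experiment 2 at 6 h (-1.21) against the control of experiment 3 (3.0). With the slide as a further block, the ratios ran from -2.30 to -1.38 in irradiated cells and from -2.33 to -1.54 in bystander cells. Under that block FKBP10 no longer passed the threshold used below in irradiated cells at 0.5 h or in bystander cells at 0.5 h and 6 h, which it passed without the block. It passed in irradiated cells at 1 h and 4 h, which it did not pass without the block, and at 6 h with and without it. The 75th percentile of the array was lower than that of the matched control in 15 of 24 irradiated and 10 of 24 bystander samples, with median log2 differences of -0.13 and 0.02. The part of array brightness in the FKBP10 ratio was not tested.

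PLOD2, the lysyl hydroxylase that acts on collagen ends, had higher mean signal than control at all 6 times in both treated groups. The exception was 24 h, where the mean turned negative in both groups without scaling between arrays or without experiment 3, and in bystander cells also without experiment 4. At 0.5 h the PLOD2 control levels were 1.49, 1.59, 0.31 and 0.96, the irradiated levels 1.59, 2.53, 1.88 and 1.52, and the bystander levels 1.47, 1.99, 1.96 and 1.52. The irradiated samples were above control in all 4 experiments, and the bystander sample of experiment 1 lay at its control. The PLOD2 log2 ratio was 0.79 ± 0.62 (SD, n = 4) at 0.5 h and 0.73 ± 0.62 at 6 h in irradiated cells, and 0.65 ± 0.71 and 0.53 ± 0.52 in bystander cells. It was lowest at 24 h, at 0.17 ± 0.68 and 0.16 ± 0.66, where the samples of experiments 1 and 2 lay below control.

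PLOD1, the lysyl hydroxylase of the helical part of collagen, differed from control mainly at 0.5 h. Its control levels there were 3.05, 3.0, 2.5 and 2.6, the irradiated levels 2.24, 2.03, 2.09 and 2.54, and the bystander levels 2.33, 1.88, 2.01 and 2.6. Experiments 1 to 3 were lower by a clear margin, while the samples of experiment 4 lay at their control. The PLOD1 ratio at 0.5 h was -0.56 ± 0.41 in irradiated and -0.59 ± 0.47 in bystander cells; at the other 5 times it lay between -0.17 and 0.06 in irradiated cells and between -0.27 and -0.05 in bystander cells. PLOD3, which also adds glucose to hydroxylysine, kept ratios between -0.25 and 0.18 in irradiated cells and between -0.21 and 0.07 in bystander cells, with 11 of 24 and 13 of 24 samples below control.

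The prolyl hydroxylase subunits showed no common direction. P4HA1 ratios had means between -0.12 and 0.23 in irradiated cells and between -0.02 and 0.27 in bystander cells, yet single samples ran from -0.80 to 1.32. For P4HA2 the probe A_23_P18966 gave irradiated means between -0.31 and 0.03, and A_23_P30363 gave means between -0.25 and 0.22. The P4HA2 probes had opposite signs in irradiated cells at 1 h (-0.04 and 0.14) and at 6 h (-0.16 and 0.22), and both were negative at 0.5 h, 2 h and 4 h; each of these differences was smaller than the SD between experiments.

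SERPINH1 had lower mean signal than control at every time in both groups, except that the bystander mean at 2 h lay at 0 without experiment 4. At 24 h the SERPINH1 control levels were 2.25, 2.38, 2.02 and 2.41, the irradiated levels 1.62, 1.88, 1.55 and 1.95, and the bystander levels 1.75, 1.44, 1.51 and 2.30. All 4 irradiated arrays lay below all 4 controls, while the bystander array of experiment 4 lay among the controls. The SERPINH1 ratio was -0.51 ± 0.08 (SD, n = 4) in irradiated and -0.52 ± 0.34 in bystander cells at 24 h, and the arrays of both treated groups also lay below all 4 controls at 1 h. Over the 6 times 21 of 24 irradiated and 20 of 24 bystander samples were below control.

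The crosslinking oxidases went different ways. LOX, the founding member of the family, had ratios in irradiated cells that were 0.17 ± 0.46 at 0.5 h, 0.21 ± 0.39 at 1 h, 0.24 ± 0.39 at 2 h, 0.41 ± 0.46 at 4 h, 0.71 ± 0.60 at 6 h and 0.60 ± 0.58 at 24 h. At 6 h the LOX control levels were 1.36, 0.63, 0.51 and 1.07, the irradiated levels 1.29, 1.19, 1.65 and 2.29, and the bystander levels 1.5, 1.14, 1.51 and 2.28. Experiments 2 to 4 were higher than control by 0.51 or more, and experiment 1 was not. The bystander ratio of LOX was 0.72 ± 0.48 at 6 h.

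LOXL2 was lower than control by nearly the same amount in every experiment at 0.5 h. Its control levels were 5.30, 5.29, 5.72 and 5.16, the irradiated levels 4.58, 4.32, 4.89 and 4.13, and the bystander levels 4.37, 4.35, 4.73 and 4.17, so the treated and control arrays did not overlap. The LOXL2 ratio was -0.89 ± 0.14 in irradiated and -0.97 ± 0.03 in bystander cells at 0.5 h, a 1.85-fold and 1.96-fold lower signal. From 1 h to 24 h it lay between -0.40 and -0.07 in irradiated and between -0.42 and -0.09 in bystander cells.

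LOXL1, which works on elastin as well as collagen, had mean ratios between -0.83 and -0.27 in irradiated cells and between -0.99 and -0.35 in bystander cells, with an SD of 0.72 to 1.06 at each time. At 2 h the LOXL1 mean turned to 0.16 and 0.15 without experiment 4. The mean was made of unlike experiments. At 0.5 h the LOXL1 control levels were 4.79, 4.83, 6.02 and 5.56, the irradiated levels 4.63, 4.99, 3.91 and 4.47, and the bystander levels 4.44, 4.89, 4.03 and 3.86. Experiments 3 and 4 were lower than control by over 1, while experiment 2 was slightly higher.

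**Figure D2:**
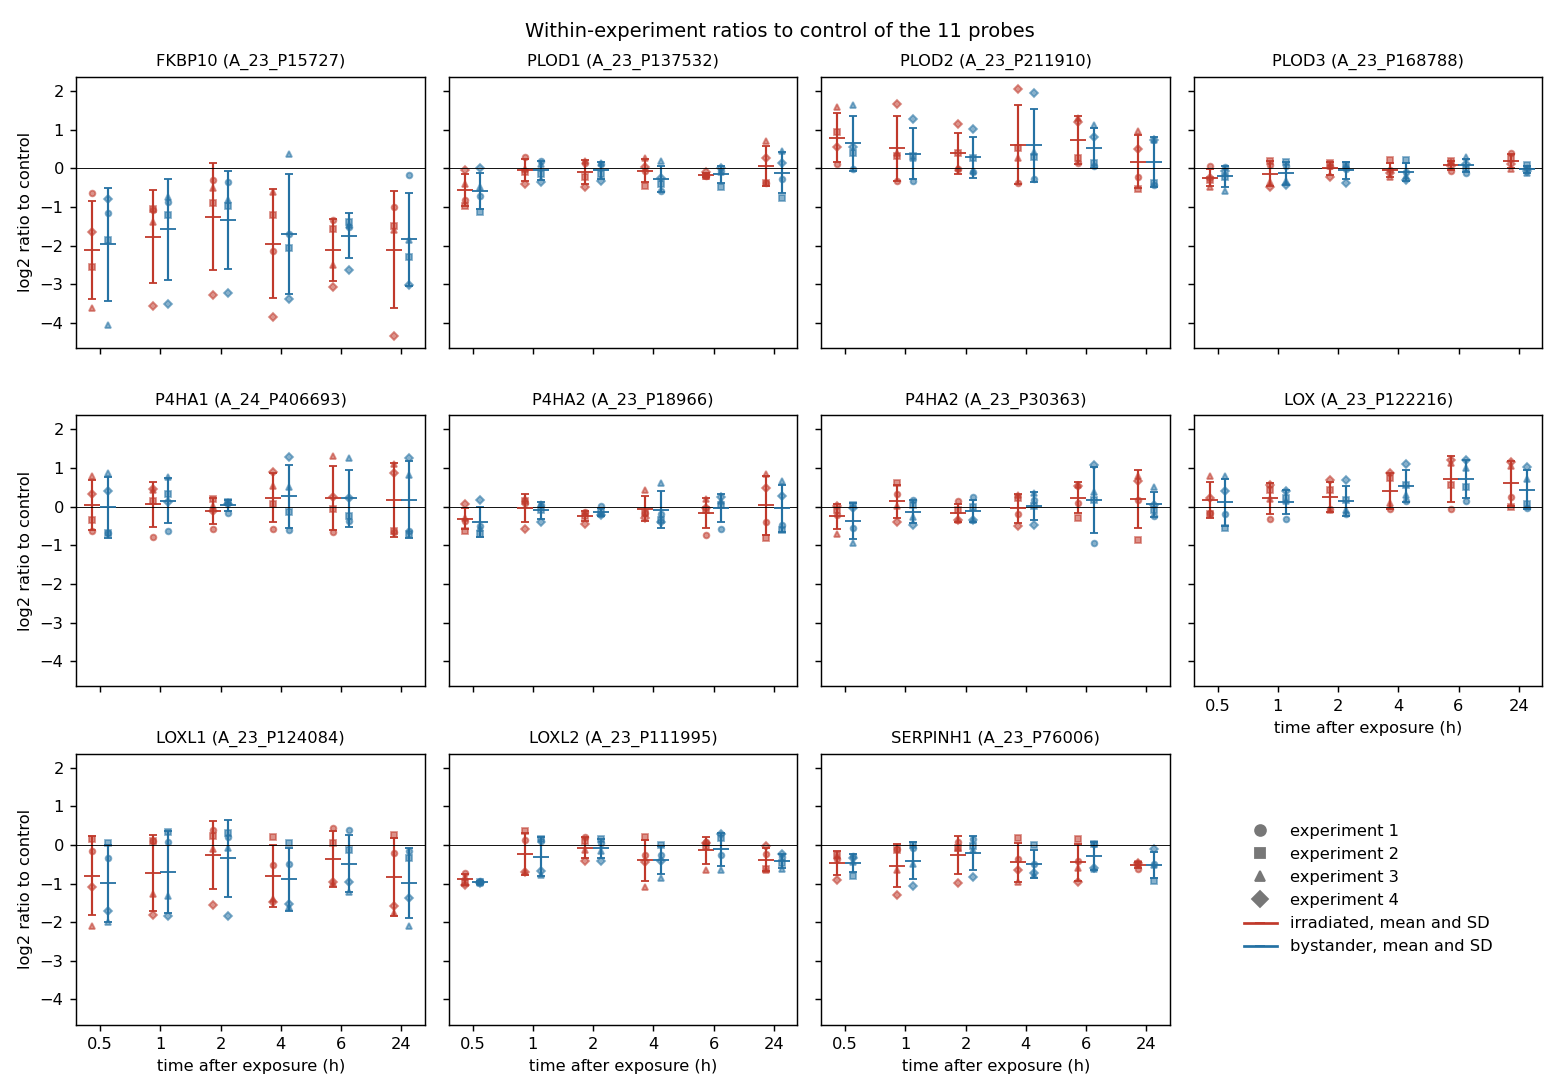
Log2 ratio to the control of the same experiment for each of the 11 probes at each time (h), in irradiated (red) and bystander (blue) cells; small symbols are the 4 experiments and bars the mean and SD. FKBP10 lies below 0 in 47 of 48 samples, PLOD2 and LOX have positive means and SERPINH1, LOXL1 and LOXL2 negative means at the 6 times under the scaling used (without scaling between arrays, some of the means of LOX, LOXL2 and PLOD2 change sign, and so do some of LOX, LOXL1, LOXL2, PLOD2 and SERPINH1 without experiment 3 or 4), and PLOD3 stays near 0.

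By limma with Benjamini-Hochberg adjustment over all probes, the rule of adjusted p below 0.10 called 4 of the 11 probes in irradiated cells at 0.5 h: FKBP10, PLOD1 and LOXL2 lower and PLOD2 higher. Of all 25245 probes tested, 9.92% were called there, 5.80% higher and 4.12% lower. At 6 h it called FKBP10 lower and PLOD2 and LOX higher, with 10.5% of all probes called, 4.89% higher and 5.64% lower. No member was called in irradiated cells at 1 h (background 0%), 2 h (5.78%), 4 h (1.00%) or 24 h (0.174%). In bystander cells FKBP10, PLOD1 and LOXL2 were called lower at 0.5 h, where 7.02% of all probes were called, 4.25% higher and 2.77% lower. FKBP10 was called lower at 6 h, where 0.289% were called, 0.214% higher and 0.0753% lower. None was called in bystander cells at 1 h (0%), 2 h (0.214%), 4 h (0.594%) or 24 h (0%). The members were chosen with ratios of these contrasts in view, so nothing is read from their share of calls. The calls depended on the experiments. In irradiated cells there were 7 calls in all, and 5, 2, 4 and 3 without experiments 1, 2, 3 and 4 in that order. Over all probes and times the share called went from 4.57% to 0.873%, 1.07%, 2.32% and 3.70%. In bystander cells there were 4 calls, and 0 without experiment 1 or without experiment 2, where 0.0165% and 0% of all probes were called in place of 1.35%. With the slide as a further block PLOD1 at 0.5 h in both groups, PLOD2 at 0.5 h and LOX at 6 h also lost their calls, LOXL2 at 0.5 h and PLOD2 at 6 h kept theirs, and LOXL1 passed in irradiated cells at 4 h. All probes called under that block made up 2.45% in irradiated and 0.115% in bystander cells.

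For LOXL1, P4HA1 and PLOD2 the controls of the 4 experiments differed more than their treated cells did. Averaged over the 6 times, the LOXL1 control level was 4.69, 4.78, 5.37 and 5.86 in experiments 1 to 4, while the irradiated level was 4.69, 4.94, 4.09 and 4.45. LOXL1 in experiments 3 and 4 was below control at all 6 times in both treated groups, with means of -1.28 and -1.42 in irradiated cells; in experiments 1 and 2 the means were 0.00 and 0.16. P4HA1 showed the reverse arrangement. Its control level was 2.10, 1.95, 0.99 and 0.83 and its irradiated level 1.45, 1.85, 1.68 and 1.27, which gave ratios of -0.65, -0.10, 0.70 and 0.45.

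PLOD2 controls had mean levels of 1.28, 1.21, 0.55 and 0.35 in experiments 1 to 4, against 1.16, 1.52, 1.30 and 1.53 in irradiated cells. In irradiated cells the PLOD2 ratio was above 0 at all 6 times in experiments 3 and 4 and below 0 at 4 of 6 times in experiment 1. FKBP10 controls had mean levels of 1.57, 1.77, 3.12 and 3.18, and its ratios were -1.09, -1.47, -1.71 and -3.29 in irradiated and -0.97, -1.63, -1.43 and -2.76 in bystander cells. Unlike LOXL1 and P4HA1, FKBP10 had mean ratios below 0 in every experiment. The LOX controls were close to each other, at 1.25, 0.95, 1.04 and 1.09, and it was the irradiated level that differed, at 1.17, 1.28, 1.57 and 1.88.

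**Figure D3:**
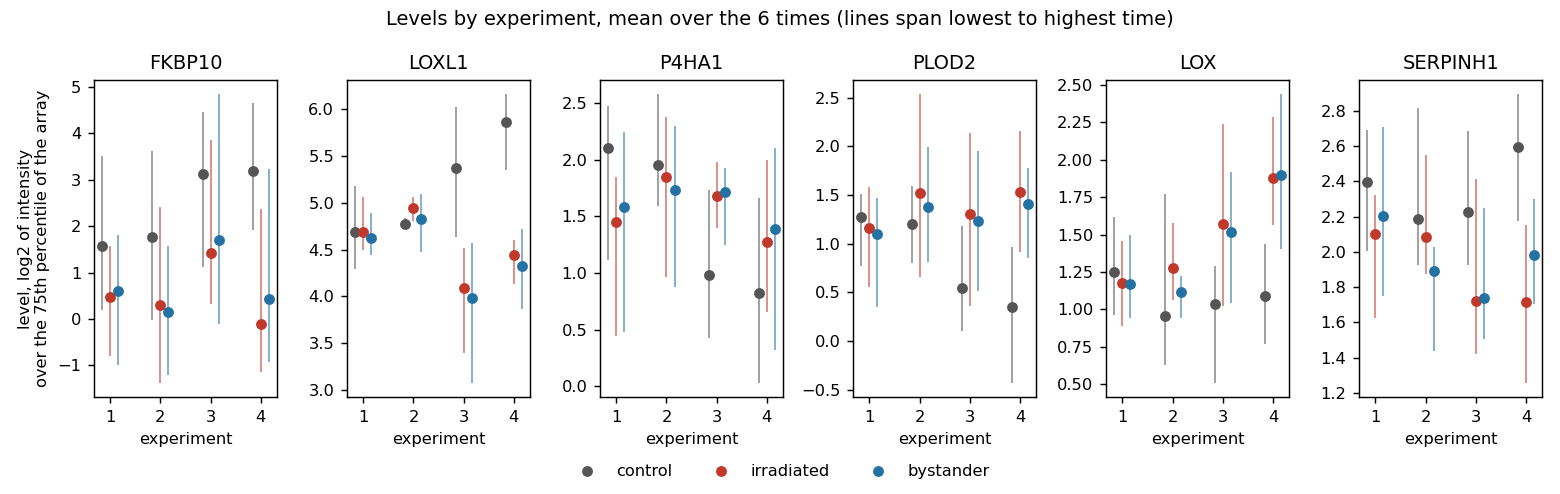
Levels of 6 genes by experiment (log2 of intensity over the 75th percentile of the array) in control (grey), irradiated (red) and bystander (blue) cells; points are means over the 6 times and lines span the lowest to the highest time. LOXL1 and FKBP10 controls are higher, and P4HA1 and PLOD2 controls lower, in experiments 3 and 4 than in experiments 1 and 2, whereas for LOX the treated samples differ.

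Irradiated and bystander cells were compared directly, a contrast that needs no control array. The genes were chosen with ratios to control in view. Whether this contrast also played a part in the choice is not recorded, and its p-values carry that limit. No member was called in any of the 66 tests by limma with Benjamini-Hochberg adjustment, and none had an unadjusted p below 0.05. The smallest adjusted p was 0.922, for P4HA2 A_23_P30363 at 1 h, with a log2 ratio of 0.27 (95% interval -0.06 to 0.60) and a higher value in 4 of 4 experiments. FKBP10 differed by -0.15 at 0.5 h (95% interval -1.17 to 0.86), by 0.09 at 2 h (-0.86 to 1.04) and by -0.37 at 6 h (-0.96 to 0.23). Irradiated FKBP10 was the lower value in 14 of 24 pairs. With the slide as a further block its difference turned to 0.16 at 0.5 h, 0.07 at 1 h and 0.23 at 4 h, and no difference was detectable with 4 experiments. PLOD2 was higher in irradiated cells in 18 of 24 pairs, with means between 0.01 and 0.20, and LOXL1 in 17 of 24, with means between -0.02 and 0.19. Over the whole array the contrast called 0% of probes at 0.5, 1, 6 and 24 h, 0.0436% at 2 h and 0.00792% at 4 h.

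**Figure D4:**
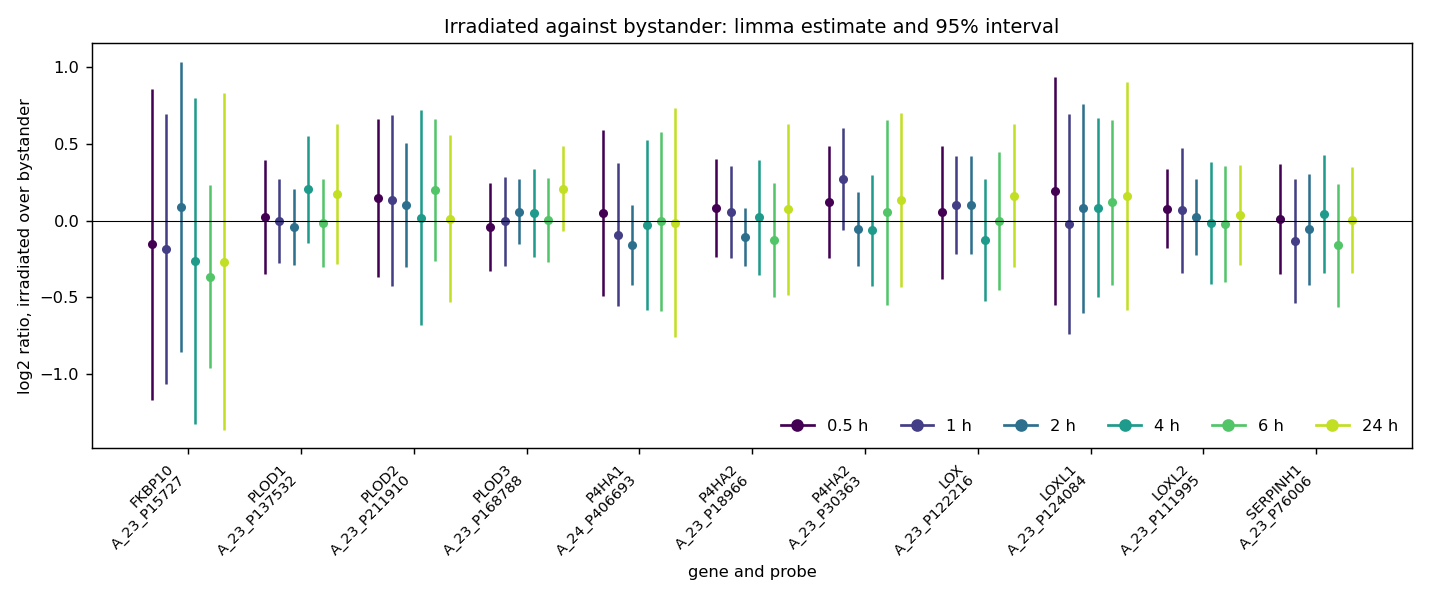
Log2 ratio of irradiated over bystander cells for each probe at each time, with the limma estimate (points) and 95% interval (lines). Every interval spans 0; the FKBP10 intervals are the widest, reaching from -1.37 to 0.83 at 24 h.

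The genes whose pattern was most like that of FKBP10 were sought over its 48 within-experiment ratios to control, which share 24 control arrays. The highest Pearson correlations were with AP1S1 (0.935), a subunit of a clathrin adaptor, AKT2 (0.905), a serine/threonine kinase, MMP14 (0.893), a membrane-anchored collagenase, PBX2 (0.876), a homeobox factor, and SLC35B2 (0.869), a sulfate donor transporter of the Golgi. Each of the 5 had negative mean ratios at all 6 times in both groups, between -1.86 and -0.36. AKT2 and AP1S1 have another probe on the array that passed the filter, with ratios between -1.40 and -0.69 and between -1.10 and -0.17; the other PBX2 probe gave smaller ratios, between -0.89 and 0.04. On the 24 control arrays alone, with each time point centred, FKBP10 also varied with AP1S1 (0.963), AKT2 (0.945), MMP14 (0.884), PBX2 (0.881) and SLC35B2 (0.859). The shared control arrays enter every one of these correlations, and a response cannot be told apart from variation of the controls in them.

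The other collagen genes were not near FKBP10 in that order. Among 13552 named genes, LOXL1 ranked 2086 (r = 0.56), PLOD3 3408 (0.44), SERPINH1 3655 (0.42), PLOD1 6066 (0.21), P4HA2 6251 (0.19) and LOXL2 6631 (0.16). P4HA1 ranked 11377 (-0.40), LOX 12920 (-0.61) and PLOD2 13439 (-0.72). PLOD2, the enzyme that FKBP10 serves, thus lay near the end opposite to FKBP10. On the 24 control arrays alone, with each time point centred, PLOD2 had a correlation of -0.74 with FKBP10. Here too a response cannot be told apart from variation of the controls. On the same control arrays FKBP10 varied with LOXL1 (0.765), PLOD3 (0.765) and LOXL2 (0.68), and against P4HA1 (-0.78). There SERPINH1 had 0.32, PLOD1 0.00, P4HA2 -0.03 and LOX -0.12. The LOXL1 ratios ran against those of P4HA1 (-0.70) and PLOD2 (-0.69).

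Other genes of the collagen pathway were counted from lists written from general knowledge. In the counts of list genes and markers below, a gene rose or fell only if it was called at adjusted p below 0.10. Of 11 further genes for extracellular processing and crosslinking, 8 passed the filter, and 6 of the 8 fell in irradiated and 5 of the 8 in bystander cells at 0.5 h, beside 4.12% and 2.77% of all probes. The median log2 ratio of the list was -0.71 in both groups, against -0.03 and 0.00 over all probes. TGM2, a transglutaminase that crosslinks matrix proteins, fell by 1.04 on the log2 scale (SD 0.57, adjusted p = 0.0400 by limma, lower in 4 of 4 experiments) in irradiated and by 0.91 in bystander cells. LOXL4 fell by 0.69 and 0.83, ADAMTS2, the procollagen N-proteinase, by 0.72 and 0.86, and PCOLCE, the enhancer of the C-proteinase, by 0.89 and 0.82. At 6 h PCOLCE and BMP1, the C-proteinase itself, were the 2 of the 8 genes that fell in irradiated cells, beside 5.64% of all probes lower. PCOLCE fell by 0.98 and BMP1 by 0.77. At 2 h 1 of the 8, ADAMTS14, rose by 0.54 in irradiated cells, beside 3.09% of all probes higher. The losses of calls below went with losses over the whole array. At 0.5 h 2504 probes were called in irradiated and 1772 in bystander cells, against 310 and 149 with the slide as a further block, 488 and 3 without experiment 1, 0 and 0 without experiment 2, 1447 and 1157 without experiment 3, and 350 and 633 without experiment 4. The list's calls at 0.5 h fell to 0 with the slide as a further block, to 0 in irradiated cells without experiment 2 or without experiment 4, and to 0 in bystander cells without experiment 1 or without experiment 2. The median of the list within a slide was below 0 on all 3 slides of 0.5 h, at -0.39, -0.67 and -0.73 in irradiated cells.

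The fibrillar collagen chains had medians below 0 as well. At 0.5 h COL5A1, a minor chain that starts fibril assembly, fell by 0.99 in irradiated cells (SD 0.45, adjusted p = 0.0323 by limma) and by 1.04 in bystander cells (SD 0.47, adjusted p = 0.0275), in 4 of 4 experiments each, and at 6 h it fell by 0.75 in irradiated cells. It was the 1 gene of the 5 in the list that was called, beside 4.12% and 2.77% of all probes called lower at 0.5 h and 5.64% at 6 h. COL1A1 had ratios of -0.76 ± 0.76 and -0.81 ± 0.61 at 0.5 h (adjusted p = 0.107 and 0.108), and COL1A2 of -0.45 ± 0.37 and -0.47 ± 0.71. The median of the 5 chains was below 0 on 18 of 18 slides in irradiated and on 16 of 18 in bystander cells, where it reached 0.48. COL5A1 was not called at 0.5 h without experiment 2 in either group, without experiment 4 in irradiated cells or without experiment 1 in bystander cells, settings under which at most 350 probes were called.

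Of 21 genes for intracellular procollagen folding 19 passed the filter, and at 0.5 h 1 rose and 1 fell in each treated group, beside 5.80% higher and 4.12% lower of all probes in irradiated and 4.25% and 2.77% in bystander cells. TMEM38B, an ion channel of the endoplasmic reticulum, rose by 0.80 in irradiated (SD 0.17, adjusted p = 0.0431 by limma) and 0.68 in bystander cells, and GLT25D1, a galactosyltransferase for hydroxylysine, fell by 0.54 and 0.53. TMEM38B also rose by 0.64 at 6 h in irradiated cells. The nearest relatives of FKBP10 were not called: in irradiated cells at 0.5 h FKBP7 had a log2 ratio of 0.01 ± 0.26, FKBP9 of -0.16 ± 0.63, FKBP11 of -0.24 ± 0.23 and FKBP14 of 0.21 ± 0.20. LEPRE1, CRTAP and PPIB, which form the prolyl 3-hydroxylation complex, had ratios of -0.40 ± 0.29, 0.02 ± 0.69 and -0.27 ± 0.45. The list's median at 0.5 h was -0.05 in irradiated and -0.18 in bystander cells.

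Chaperones and stress genes had more calls above control than below it. Of 17 genes for endoplasmic reticulum chaperones and the unfolded protein response, 3 rose in irradiated cells at 0.5 h, 4 at 2 h and 3 at 6 h, where 5.80%, 3.09% and 4.89% of all probes were higher; none fell, beside 4.12%, 2.69% and 5.64% lower. DNAJC3 rose by 0.80 (SD 0.25, adjusted p = 0.0458 by limma) and DNAJB9 by 0.61 at 0.5 h, and SDF2L1 rose by 0.93 and the calcium-binding chaperone CALR by 0.73 (SD 0.26, adjusted p = 0.0331) at 6 h. In bystander cells DNAJB9 and DNAJC3 rose at 0.5 h, by 0.62 and 0.64. With the slide as a further block the counts in irradiated cells were 0, 0 and 2. Without experiment 1 or without experiment 2 they were 0, 0 and 2, without experiment 3 they were 2, 0 and 3, and without experiment 4 they were 0, 5 and 0. Over all probes the calls at 2 h were 1460, and 31 with the slide block and 28, 25, 61 and 4915 without experiments 1 to 4 in order; at 6 h they were 2657, and 2326 with the slide block and 785, 1269, 1865 and 208.

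Of 10 cytosolic heat shock genes that passed the filter, 6 rose and 1 fell in irradiated cells and 4 rose and 1 fell in bystander cells at 0.5 h, beside 5.80% and 4.25% of all probes higher. HSPA1A rose by 2.79 (SD 2.16, adjusted p = 0.0610 by limma, 4 of 4 experiments) and 2.70 (SD 2.31, 3 of 4), HSPH1 by 1.18 and 1.10, and HSP90AA1 by 1.06 and 1.02. The small heat shock protein HSPB1 fell by 0.73 and 0.75. In irradiated cells 2 of the 10 genes also rose at 2 h and 5 at 6 h, beside 3.09% and 4.89% of all probes. By limma 0 were called in bystander cells at these times, with 3 and 2 at an unadjusted p below 0.05. Irradiated against bystander cells gave 0 calls for the list at both times, and 0 genes at an unadjusted p below 0.05. With the slide as a further block 1 gene rose in irradiated and 0 in bystander cells. Without experiment 1 the same counts were 1 and 0, and without experiment 2, where no probe on the array was called at 0.5 h, they were 0 and 0. The median of the list within each of the 3 slides of 0.5 h stayed between 0.31 and 0.90 in irradiated cells. HSPA1A has a near-identical paralog, so its signal may include that of the other gene.

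**Figure D5:**
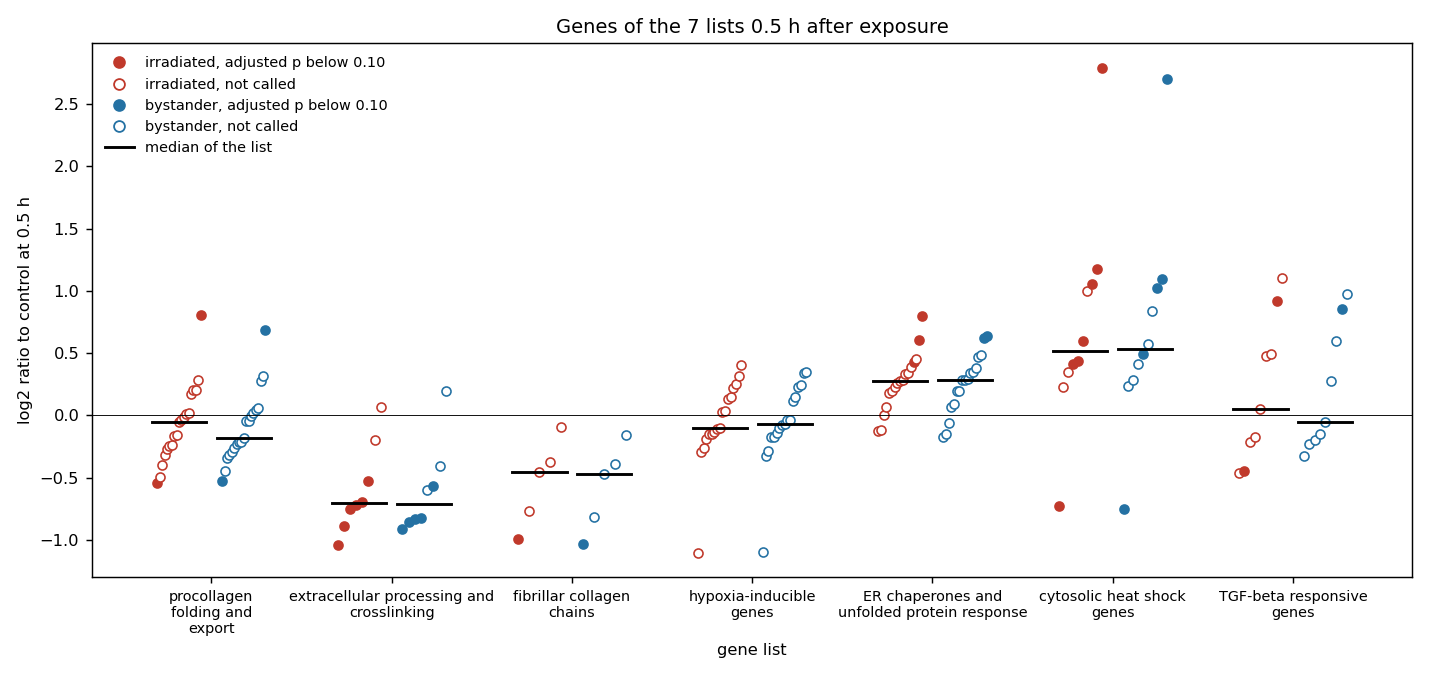
Log2 ratio to control at 0.5 h for each gene of the 7 lists in irradiated (red) and bystander (blue) cells; filled symbols passed adjusted p below 0.10 and black bars are list medians. The extracellular processing list has a median of -0.71 in both groups, and the heat shock list medians of 0.52 and 0.53.

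SERPINH1 is itself a heat shock gene, and its signal was lower than control at 0.5 h, at -0.46 ± 0.31 in irradiated cells, beside the rise of HSPA1A. Promoter sequences of 8 of the 10 genes were in the RefSeq table for GRCh38.p14; FKBP10 and LOXL2 were not matched. In the 250 bases before the start, the heat shock element core GAANNTTC, searched on both strands, was found in SERPINH1 alone of the 8 genes, at the most upstream start listed for each, and in 5.78% of 35116 promoters. The SERPINH1 promoter at chr11:75562003-75562252 on the plus strand is shown because 6 of 10 other heat shock genes rose while the SERPINH1 ratio was below 0, with the element in capitals. The hypoxia response core ACGTG, on either strand, was found in PLOD2, LOX and P4HA1 at the same starts, in SERPINH1 at a start further downstream, and in 18.5% of all 35116 promoters. Both background shares count every start listed and not the most upstream ones alone. The PLOD2 promoter at chr3:146161185-146161434 on the minus strand is shown as an example, with ACGTG and its reverse complement in capitals.
SERPINH1 promoter: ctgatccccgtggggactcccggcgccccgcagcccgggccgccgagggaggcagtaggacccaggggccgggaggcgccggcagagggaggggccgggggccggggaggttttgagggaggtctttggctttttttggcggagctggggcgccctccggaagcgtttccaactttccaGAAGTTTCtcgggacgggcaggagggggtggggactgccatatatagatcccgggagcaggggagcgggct
PLOD2 promoter: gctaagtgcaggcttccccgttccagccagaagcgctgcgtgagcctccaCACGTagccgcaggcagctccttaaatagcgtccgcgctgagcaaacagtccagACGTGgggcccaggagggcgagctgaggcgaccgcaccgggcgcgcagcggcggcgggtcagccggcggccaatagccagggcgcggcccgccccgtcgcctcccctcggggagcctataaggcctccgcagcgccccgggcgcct
These matches describe the sequence only.

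Of 17 hypoxia-inducible genes that passed the filter, 1 was called against control, at 2 h in irradiated cells, where 5.78% of all probes were called. ANKRD37 fell by 0.48 (SD 0.13, adjusted p = 0.0539 by limma), a call that was lost without any single one of the 4 experiments except experiment 4. The list's median was between -0.10 and 0.18 over the 6 times in irradiated and between -0.07 and 0.22 in bystander cells. At 4 h it was 0.15 and 0.22, against -0.01 and -0.04 over all probes, with 14 and 15 of the 17 genes above 0, and at 1 h 14 of 17 were above 0 in both groups. Within slides the list's median was below 0 on 7 of 18 slides in irradiated and on 12 of 18 in bystander cells, where it ran from -0.84 to 0.75. Of 9 TGF-beta responsive genes, 3 were called higher and 0 lower in irradiated cells at 6 h, beside 4.89% higher and 5.64% lower of all probes. The list's median there was -0.20, with 4 of the 9 genes above 0. At 0.5 h 1 rose and 1 fell in irradiated cells, beside 5.80% and 4.12%, and 1 rose in bystander cells, beside 4.25%. At 2 h 1 rose in irradiated cells, beside 3.09%. CTGF rose by 0.77 at 6 h in irradiated cells (SD 0.44, adjusted p = 0.0687 by limma). SKIL, a feedback repressor of the pathway, rose by 0.92 at 0.5 h in irradiated and 0.86 in bystander cells. LTBP2 fell by 0.45 at 0.5 h in irradiated cells.

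Fibroblast markers moved in the same arrays. Of the 9 markers 1 fell in irradiated and 2 fell in bystander cells at 0.5 h, beside 4.12% and 2.77% of all probes. In irradiated cells 1 rose and 1 fell at 2 h and again at 6 h, beside 3.09% higher and 2.69% lower, and 4.89% and 5.64%. The median of the 9 markers was below 0 at all 6 times, from -0.53 to -0.17 in irradiated and from -0.62 to -0.20 in bystander cells. THY1 fell by 1.07 in irradiated (SD 0.74, adjusted p = 0.0448 by limma) and by 1.10 in bystander cells at 0.5 h, PDGFRB fell by 0.94 and FAP rose by 0.81 in irradiated cells at 6 h. COL1A1 and COL1A2 are also among the fibrillar chains above. The epithelial marker SFTPC had ratios of -0.67 in irradiated and -0.36 in bystander cells at 0.5 h, and of 0.24 and 0.19 at 2 h. The endothelial marker VWF had -0.33 and -0.32 at 0.5 h. The 2 leukocyte markers that passed the filter had medians of -0.17 and 0.00 at 0.5 h. None of these was called. The part of the markers in the collagen gene ratios was not tested.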

How the data were processed

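RNA from 72 samples of IMR-90 cells was hybridised by the authors to Agilent 1-colour arrays. The deposited scanner files give a background-subtracted intensity per spot, as per the file headers. The authors' own value table holds log2 values of the same arrays and was used as an alternative only.

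Here the log2 intensity of each spot was taken minus the 75th percentile of its array. Spots flagged as non-uniform were treated as missing, and a probe's value is the mean of its spots. The filter on dim probes removed those without a usable spot above background on more than 10% of arrays and kept 25246 of 41000. Each time was fitted by limma 3.58.1 (R 4.3.3) on its 12 arrays, with treatment and experiment as terms and Benjamini-Hochberg adjustment over all probes; the threshold was 0.10. The code was tested on simulated data. Within a time, same-numbered samples of an experiment came from 1 pool of cells and deviated together, with median correlations of 0.36 to 0.63 (above 0.1 in 12 of 12 pairs at 4 times and in 10 of 12 at 4 h and 6 h), so experiment was kept as a block. The methods call the 4 experiments independent. Each time lay on its own 3 slides, which mixed the groups.

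The members and lists were chosen with earlier results of these data known. Named were all members, the 5 genes most like FKBP10, up to 4 called genes of each list with the largest ratios, and genes counted alone. The relatives of FKBP10, COL1A1, COL1A2, LEPRE1, CRTAP, PPIB and the fibroblast markers were named outside that rule, after their values were seen. A further gene under that rule is not reported here. Alternatives covered scaling, background correction, filter, blocks and leaving out each experiment.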

Additional observations from a re-analysis of the deposited data

Results flagged for a closer look

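In 12 of 198 sets of 4 log2 ratios, 1 experiment lay far from the other 3, and chance alone flags about 1 in 20 such sets. FKBP10 was flagged 3 times, each time for experiment 4: at -3.55 in irradiated cells at 1 h, where the others were between -1.40 and -1.05, at -3.51 in bystander cells at 1 h and at -2.62 in bystander cells at 6 h. Experiment 4 was also the outlying one for SERPINH1 in irradiated cells, at -0.92 at 0.5 h and -0.99 at 2 h, for PLOD1 at -0.10 at 6 h and for P4HA2 A_23_P18966 at -0.58 at 1 h. LOXL2 had -0.66 in experiment 3 in irradiated cells at 6 h, and P4HA1 had -0.17 in experiment 1 in bystander cells at 2 h. Between irradiated and bystander cells, experiment 2 stood apart for PLOD1 at 6 h (0.27), LOX at 4 h (0.18) and LOXL1 at 1 h (-0.22).

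P4HA2 A_23_P30363 was higher in irradiated than in bystander cells in all 4 experiments at 1 h (mean 0.27) and lower in all 4 at 2 h (mean -0.054). With normexp background correction the mean at 2 h turned to 0.093. The difference between the times was not tested.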

How the results depend on the processing

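FKBP10 had a negative ratio to control under all 78 alternative values in each treated group, from -2.61 to -0.57 in irradiated and from -2.39 to -0.71 in bystander cells. No member value that passed the threshold changed sign in the 139 alternative values of such results. These results were picked by passing, so nothing is read from their stable sign. Of all 2538 alternative values of the members, 203 changed sign, among them 58 without scaling between arrays, 23 with slide as a further block and 39 without experiment 4. Counts of calls are given beside the shares of all probes called over the 6 times. The counts and the shares did not always move in the same direction, and the cause was not tested. Of all probes 4.57% were called in irradiated cells, against 7.79% without scaling between arrays, 3.22% with the authors' value table, 7.59% in one fit over all arrays, 2.45% with slide as a further block, 0.0594% with no replicate block and 0.873% to 3.70% without an experiment. Counted over member probes and times there were 7 calls, against 14, 4, 11, 6, 0 and 2 to 5 in that order. Chosen after seeing the data, leaving out the 0.5 h arrays gave 3 calls and the 6 h arrays 4. In bystander cells 1.35% of all probes were called, against 2.67% without scaling, 1.84% with normexp, 1.63% with quantile normalization, 1.49% with the filter requiring all arrays, 0.381% with the authors' table, 0.115% with slide as a further block, 3.25% in one fit, 0.0178% with no replicate block and 0% to 2.52% without an experiment. Over member probes and times there were 4 calls in bystander cells, against 8 without scaling and 8 with normexp. The filter requiring all arrays (which drops PLOD1 and LOXL2) gave 2 calls and slide as a further block 1. There were 7 in one fit, 0 with no replicate block, 0 to 5 without an experiment and 1 without the 0.5 h arrays. For the lists, 45 calls in irradiated cells became 29 with the authors' table, 20 with slide as a further block, 0 with no replicate block and 7 to 28 without an experiment. In bystander cells 16 calls became 26 with quantile normalization, 5 with the authors' table, 2 with slide as a further block, 32 in one fit, 0 with no replicate block and 0 to 27 without an experiment. Irradiated against bystander cells gave 0 member calls throughout. Without scaling, the median of all probes moved by -0.40 to 0.24 in irradiated and by -0.27 to 0.47 in bystander cells. The number of arrays limits the precision.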
